A study of Mus musculus with 2 samples.

Results

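Beta-catenin, the proteins that mark it for degradation and the TCF/LEF factors it works with were examined in prostate tumours of 2 mice. The 10 genes were listed by name for their roles in the pathway, with earlier results of these libraries known: Ctnnb1, the destruction complex genes Apc, Axin1, Gsk3b, Csnk1a1 and Btrc, and the TCF/LEF genes Tcf7, Tcf7l1, Tcf7l2 and Lef1. All 10 were found once among the 27376 genes of the count table, and all 10 reached the minimum mean of 1 CPM, the read count per scaled library size, as did 14354 genes in all. Each genotype, named Bcat_Only and Met_Bcat in the labels, was represented by 1 library from fresh prostate tumour tissue of a mouse aged 16 months. In the file, the column of the Bcat_Only sample is headed with Bcat ex3Plus and with PB Cre. The former names exon 3 of beta-catenin, but the heading does not explain Plus or say how many copies of the gene were altered. PB Cre is by common usage a recombinase under the probasin promoter of prostate epithelium. The heading of the Met_Bcat column names no allele, and the labels do not describe how MET, the receptor of hepatocyte growth factor, was altered. By their names both genotypes carry altered beta-catenin, and no library without it was analysed here. The question posed was what MET adds to beta-catenin in prostate tumour formation. Since a genotype has 1 library, nothing was tested and no p-value is given, so all differences are between these libraries and each interval covers counting error only.

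Without a Wnt signal, beta-catenin in the cytoplasm is held by the scaffolds APC and AXIN1, phosphorylated first by casein kinase 1 alpha (Csnk1a1) and then by GSK3 beta (Gsk3b), and recognised by the ubiquitin ligase receptor beta-TrCP (Btrc). Beta-catenin that escapes this complex enters the nucleus and binds TCF/LEF proteins, which carry no strong activation domain of their own and recruit Groucho/TLE co-repressors in its absence. In mouse prostate epithelium, stabilised beta-catenin is known to cause hyperplasia and tumours with squamous change.

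The libraries held 19301062 and 20117724 reads assigned to genes in Bcat_Only and Met_Bcat, and they differed widely in cell type markers. Of 13 marker lists, the summed CPM of 9 was lower in Met_Bcat, by 1.32-fold for T cell markers and 24.4-fold for fibroblast markers, up to 1440-fold for seminal vesicle markers. The summed CPM of luminal, basal, squamous and hair-shaft, and prostate secretory markers was higher in Met_Bcat, at 1.73-fold, 1.95-fold, 2.96-fold and 145-fold, except that the luminal sum was at 0.935 under scaling to the basal markers. The luminal keratin genes Krt8 and Krt18 stood at 274 and 809 CPM in Bcat_Only and at 373 and 1026 CPM in Met_Bcat, so the prostate epithelial label was met in both. Of the prostate secretory sum, Tgm4 made up 21.5 of 42.1 CPM in Bcat_Only and 6044 of 6109 CPM in Met_Bcat. Pbsn and Defb50 were 1.85-fold and 6.38-fold higher in Met_Bcat. Spink3 and Sbp went the other way, with 50 and 4 reads in Bcat_Only and 0 in Met_Bcat, and Msmb had 0 reads in both libraries. In bulk tissue, fewer cells of a type and less RNA per cell cannot be told apart.

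**Figure D1:**
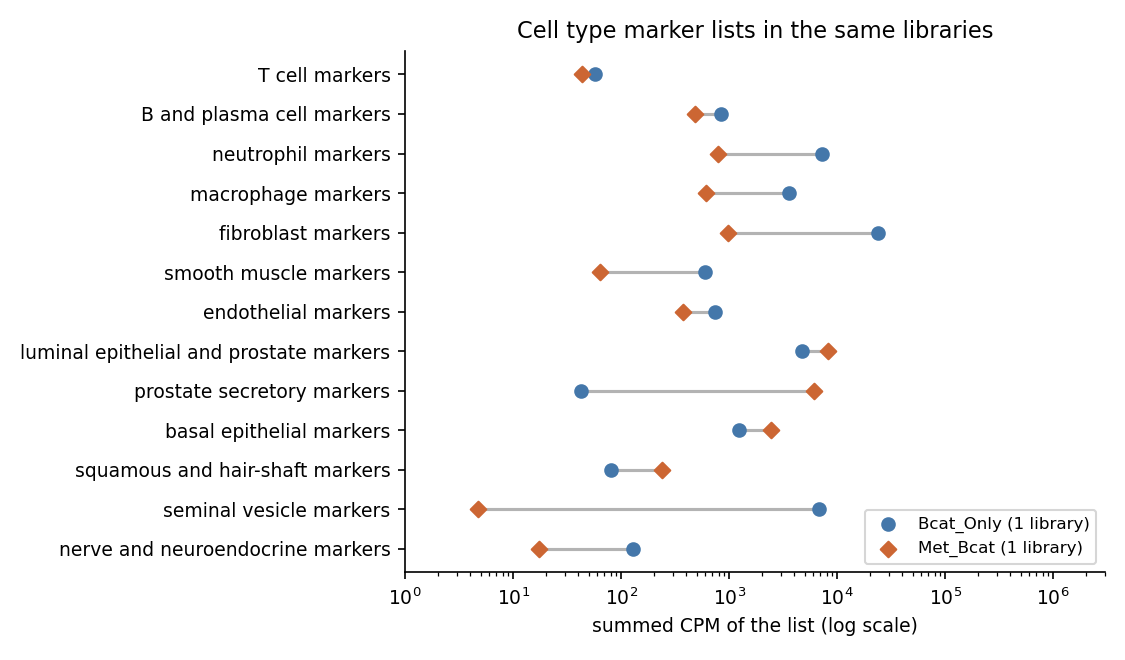
Summed CPM of 13 cell type marker lists (x axis, log scale) in the Bcat_Only library (circles) and the Met_Bcat library (diamonds). Fibroblast markers summed to 23926 CPM in Bcat_Only and 982 CPM in Met_Bcat, while basal markers summed to 1239 and 2417 CPM.

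Under TMM scaling the beta-catenin transcript and the core of its destruction complex differed little between the tumours, whereas Lef1 was several-fold more abundant in Met_Bcat and Tcf7 moderately so. Scaled to luminal or to basal epithelial markers, Ctnnb1, Apc, Axin1 and Csnk1a1 were lower in Met_Bcat, at ratios of 0.735 to 0.771 and of 0.537 to 0.563, Tcf7 was at 1.20 and 0.878, and Lef1 was still higher. Of the 10 genes, 1 (Lef1) was at least 2-fold higher in Met_Bcat by the end of its 95% interval nearest to no difference, and 0 were lower. Over all genes considered the share past this rule was 19.1%, with 4.42% higher and 14.6% lower. At 1.5-fold the members past the rule were 2, Lef1 and Tcf7, both higher, against 27.8% of all genes in either direction, 8.12% higher and 19.7% lower. The Tcf7 call was lost under luminal scaling, which left 1 higher and 0 lower, and under basal scaling, which gave 1 higher and 6 lower. The shares over all genes were taken under TMM only. Luminal scaling moved the median log2 ratio of all genes to −0.40 and basal scaling to −0.86, so the 6 cannot be set apart from this general shift. The remaining 8 ratios lay between 0.926 and 1.39. The log2 ratio of Lef1 exceeded that of 98.1% of all genes and that of Tcf7 89.8%, while Ctnnb1, Axin1, Csnk1a1 and Apc lay between the 46.5th and the 51.8th percentile.

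**Figure D2:**
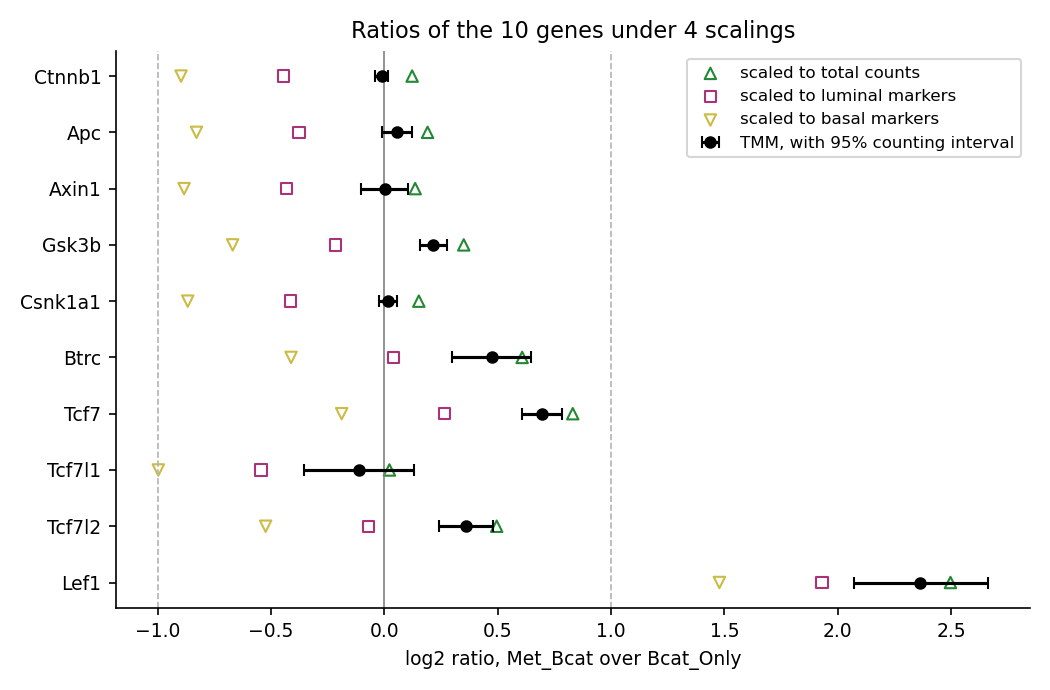
Log2 ratio of Met_Bcat over Bcat_Only (x axis) for the 10 genes. Filled points give TMM scaling with 95% counting intervals, open symbols the same ratios scaled to total counts, luminal markers or basal markers, and dashed lines 2-fold. Lef1 stayed between 1.48 and 2.50 under these scalings, while Tcf7 moved from 0.83 under total counts to −0.19 under basal markers.

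The sign of a small ratio depended on how the libraries were scaled. Relative to TMM, total counts added 0.13 to every log2 ratio, the luminal markers moved it by −0.43, and the basal markers by −0.88, a setting added once the values were known. Under TMM 8 of the 10 ratios were above 1, under total counts 10, under luminal scaling 3 (Btrc, Tcf7 and Lef1) and under basal scaling 1 (Lef1). Of all genes considered with reads in both libraries, 52.6% had a ratio above 1 under TMM, and this share was taken under TMM only. The median log2 ratio of all genes was 0.034 under TMM, 0.17 under total counts, −0.40 under luminal and −0.86 under basal scaling. Ratios between genes need no scaling and are therefore given beside those between libraries. Of the 45 pairs among the 10 genes, 34 had a ratio of ratios whose 95% interval excluded 1. Lef1, Tcf7 and Gsk3b each differed in this way from the other 9 genes. The same share over all pairs of genes was not computed, so whether these counts are unusual cannot be said.

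Ctnnb1, which encodes beta-catenin (ENSMUSG00000006932, mm9 chromosome 9, 120838334 to 120869625, plus strand), had 18080 reads in Bcat_Only and 20520 in Met_Bcat. This corresponded to 981 and 974 CPM, a ratio of 0.992 (95% interval 0.972 to 1.01) that was 1.09 under total counts, 0.735 under luminal and 0.537 under basal scaling. Its level was 192 and 191 RPKM, the CPM per kilobase of exon, and it was the most abundant of the 10 genes in both libraries, above 98.7% and 98.9% of all genes considered. Exon 3, the exon named in the heading of the Bcat_Only column, is shown because it encodes the residues that the destruction complex phosphorylates. In the reference transcript it has 228 bases, which is 76 codons with 0 bases left over, so its loss keeps the reading frame. The sequence below is from GENCODE M21 on GRCm38, chr9:120950522-120950749, plus strand. Capitals mark codons 33, 37 and 41, the serine and threonine sites of GSK3, and codon 45, the serine site of casein kinase 1, counted from the start codon as 1.
Ctnnb1 exon 3: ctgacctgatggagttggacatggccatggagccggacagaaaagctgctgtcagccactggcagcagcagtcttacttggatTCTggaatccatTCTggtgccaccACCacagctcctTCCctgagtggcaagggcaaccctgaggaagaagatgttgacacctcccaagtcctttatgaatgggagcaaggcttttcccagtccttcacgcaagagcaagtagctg
These 228 bases make up 4.47% of the 5099 exon bases that the authors' table gives for Ctnnb1. The table holds 1 count per gene, so reads from exon 3 and from the rest of the transcript could not be separated, and the totals neither show nor deny a deletion of this exon in either library. Ulk4, which overlaps Ctnnb1 on the opposite strand, had 88 and 107 reads, few beside those of Ctnnb1.

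The scaffold genes were at nearly the same level in both tumours under TMM, and lower in Met_Bcat under luminal scaling (0.771 for Apc and 0.742 for Axin1) and basal scaling (0.563 and 0.542). Apc encodes the large scaffold that is lost in most colorectal tumours (ENSMUSG00000005871, mm9 chromosome 18, 34380578 to 34481843). Its reads were 3320 in Bcat_Only and 3950 in Met_Bcat, or 180.2 and 187 CPM, a ratio of 1.04 (0.993 to 1.09). Axin1, the scaffold that brings the kinases to beta-catenin (ENSMUSG00000024182, chromosome 17, 26275631 to 26332756), had 1395 and 1598 reads, or 75.7 and 75.8 CPM, a ratio of 1.001 (0.931 to 1.08). Relative to Ctnnb1 the ratio of ratios was 1.05 for Apc (0.997 to 1.10) and 1.01 for Axin1 (0.937 to 1.09). Neither interval excluded equal change.

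The Axin1 paralogue Axin2, a feedback target of beta-catenin, exceeded Axin1 in level in both tumours. Axin2 stood at 62.1 RPKM in Bcat_Only and 82.0 RPKM in Met_Bcat, 3.14 and 4.14 times the level of Axin1. The change of Axin2 against that of Axin1 was 1.32-fold (1.22 to 1.43), a comparison that scaling cannot move. Apc2, a paralogue of Apc known mainly from neurons, had 20 reads in Bcat_Only and 5 in Met_Bcat and was below the minimum of 1 CPM. Of 7 nerve and neuroendocrine markers considered 6 were lower in Met_Bcat and none was at 0 reads, with 7.48-fold less in sum, and their part in the Apc2 reads was not tested.

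Of the kinases, Csnk1a1 was at the same level within counting error under TMM (0.751 under luminal and 0.548 under basal scaling) and Gsk3b was slightly more abundant in Met_Bcat under all scalings but those to luminal or basal markers. The reads of Csnk1a1, which encodes the kinase that primes beta-catenin (ENSMUSG00000024576, chromosome 18, 61714928 to 61749715), were 9456 and 10954. These were 513 and 519.7 CPM, a ratio of 1.01 (0.985 to 1.04). Gsk3b, which encodes the kinase that follows (ENSMUSG00000022812, chromosome 16, 38089087 to 38246170), had 4013 and 5333 reads, or 218 and 253 CPM. Its ratio was 1.16 (1.11 to 1.21) under TMM and 0.861 under luminal and 0.629 under basal scaling. Against Ctnnb1 the change of Gsk3b was 1.17-fold (1.12 to 1.23) and the change of Csnk1a1 was 0.872 times that of Gsk3b (0.830 to 0.916).

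The related kinase genes moved by similar or larger amounts. Gsk3a, which encodes the other GSK3 and can act in its place, stood at 34.8 and 41.6 RPKM, against 22.2 and 25.7 RPKM for Gsk3b. The change of Gsk3a against that of Gsk3b was 1.03-fold (0.949 to 1.11), so these paralogues were not told apart at this depth. Csnk1d, a casein kinase gene with roles in Wnt signalling and the circadian clock, was at 37.1 and 54.5 RPKM, a change of 1.45-fold against Csnk1a1 (1.38 to 1.52). Per length, Csnk1a1 was the more abundant in Bcat_Only, at 1.32 times Csnk1d, and Csnk1d in Met_Bcat, where Csnk1a1 was at 0.907 of it. This switch rests on the division by exon length. In CPM Csnk1a1 was the higher in both libraries, at 513 and 519.7 against 217 and 319 for Csnk1d. Csnk1e differed less from Csnk1a1, by 1.09-fold (1.02 to 1.16).

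Btrc, which encodes the receptor subunit that binds phosphorylated beta-catenin (ENSMUSG00000025217, chromosome 19, 45438224 to 45607831), was covered by 445 reads in Bcat_Only and by 707 in Met_Bcat. It stood at 24.2 and 33.5 CPM, 1.39-fold higher in Met_Bcat (1.23 to 1.57) and 1.40-fold against Ctnnb1 (1.24 to 1.58), while its ratio was 1.03 under luminal and 0.752 under basal scaling. In both tumours Btrc was the least abundant of the destruction complex genes examined, at 3.82 and 5.31 RPKM. Its paralogue Fbxw11, which recognises the same phosphorylated motif, was at 28.2 and 33.5 RPKM, or 7.395 and 6.32 times the level of Btrc. The change of Fbxw11 against that of Btrc was 0.855-fold (0.750 to 0.974).

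**Figure D3:**
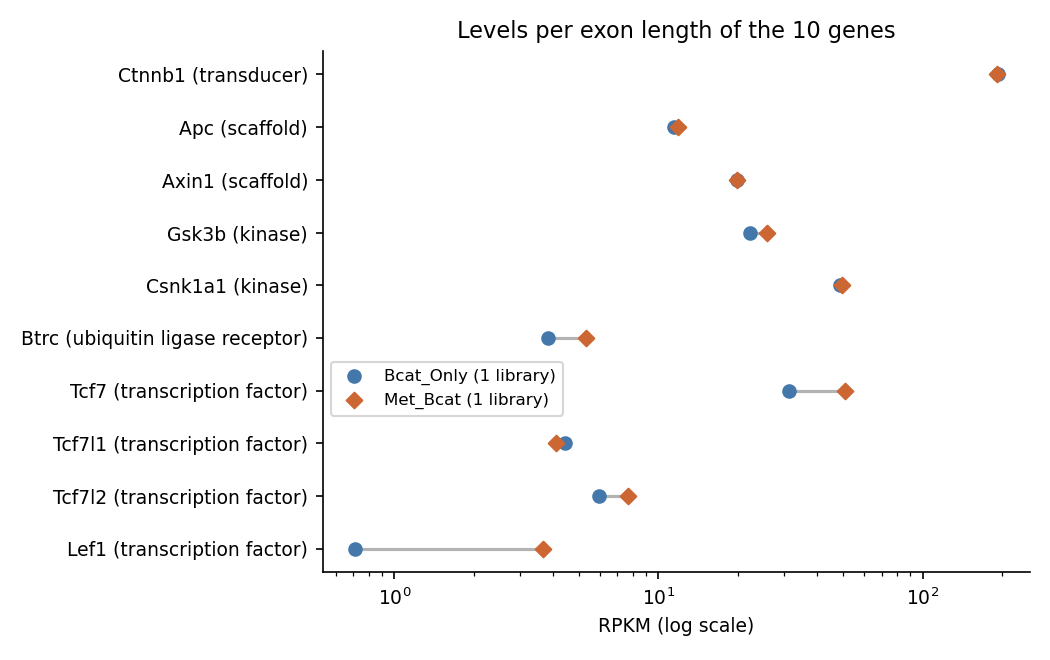
Levels of the 10 genes in RPKM (x axis, log scale) in the Bcat_Only library (circles) and the Met_Bcat library (diamonds), joined by a line for each gene. Ctnnb1 stands apart at 192 and 191 RPKM, and Lef1 spans the longest line, from 0.709 to 3.65 RPKM.

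By level per length the order in Bcat_Only was Ctnnb1, Csnk1a1, Tcf7, Gsk3b, Axin1, Apc, Tcf7l2, Tcf7l1, Btrc and Lef1. The counting intervals of neighbours in this order overlapped only for Tcf7l1 and Btrc, at 4.44 RPKM (3.93 to 5.003) and 3.82 RPKM (3.47 to 4.19). In Met_Bcat Tcf7 stood second, at 50.7 RPKM (48.9 to 52.6), with an interval that overlapped that of Csnk1a1 at 49.5 RPKM (48.6 to 50.4). Lef1 was still last, at 3.65 RPKM (3.37 to 3.93), but its interval now overlapped that of Tcf7l1 at 4.11 RPKM (3.65 to 4.62). These levels rest on the deposited exon lengths, which join the exons of all annotated transcripts, and on a single library each.

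The TCF/LEF genes were next compared as a sum and by their shares of it. The summed reads of the 4 factors were 2954 and 5348, or 1.58-fold higher (1.51 to 1.66) under TMM and at a ratio of 1.17 under luminal and 0.857 under basal scaling. Without Lef1 the ratio was 1.44 (1.38 to 1.51), and 1.07 and 0.780 under these scalings. The summed reads of the 5 destruction complex genes differed by 1.06-fold (1.04 to 1.08) under TMM, with a ratio of 0.784 under luminal and 0.573 under basal scaling. In RPKM, Ctnnb1 exceeded the sum of the 4 factors by 4.54 times in Bcat_Only and by 2.89 times in Met_Bcat, a change in transcript ratio that does not depend on scaling.

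Tcf7, which encodes TCF1 and is known for T cell development and as a target of beta-catenin (ENSMUSG00000000782, chromosome 11, 52065873 to 52096681, minus strand), was the main factor in both tumours. Its reads were 1609 and 2984, or 87.3 CPM in Bcat_Only and 142 CPM in Met_Bcat. It was 1.62-fold higher in Met_Bcat (1.53 to 1.72), a ratio of 1.20 under luminal and 0.878 under basal scaling. Against Ctnnb1 its change was 1.63-fold (1.53 to 1.74), and against Apc 1.56-fold (1.44 to 1.68). Overlapping annotated genes had few reads, 24 and 38 for Gm16953 on the same strand and 4 and 16 for A630014C17Rik on the opposite strand.

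Tcf7l2, which encodes TCF4 and is the main factor of intestinal epithelium (ENSMUSG00000024985, chromosome 19, 55816300 to 56008144), was at 52.1 CPM from 960 reads in Bcat_Only and at 66.9 CPM from 1411 reads in Met_Bcat. The ratio was 1.28 (1.18 to 1.40) under TMM and 0.952 under luminal and 0.696 under basal scaling. Its change was 1.30-fold against Ctnnb1 (1.19 to 1.41) and 0.793-fold against Tcf7 (0.716 to 0.878). Tcf7l1, which encodes TCF3, a factor known mainly as a repressor in embryonic and skin stem cells (ENSMUSG00000055799, chromosome 6, 72576372 to 72739248, minus strand), was the only one of the 4 with no higher ratio under TMM. It had 272 and 288 reads, or 14.8 and 13.7 CPM, a ratio of 0.926 (0.781 to 1.10) that was 1.02 under total counts, 0.686 under luminal and 0.501 under basal scaling. Against Tcf7 its change was 0.571-fold (0.479 to 0.681) and Tcf7l2 changed 1.39-fold against it (1.15 to 1.67).

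Lef1, a factor of hair follicle, mammary and lymphoid development (ENSMUSG00000027985, chromosome 3, 130813389 to 130927274, plus strand), was counted 113 times in Bcat_Only and 665 times in Met_Bcat. It stood at 6.13 and 31.6 CPM, 5.14-fold higher in Met_Bcat (4.21 to 6.34). The ratio was 3.81 under luminal and 2.79 under basal scaling. Against Ctnnb1 the change was 5.19-fold (4.24 to 6.34), against Tcf7 3.17-fold (2.58 to 3.91), against Tcf7l2 4.004-fold (3.23 to 4.97) and against Tcf7l1 5.56-fold (4.29 to 7.20). Even so, Lef1 remained a minor factor by level, above 6.97% of all genes considered in Bcat_Only and 34.9% in Met_Bcat.

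**Figure D4:**
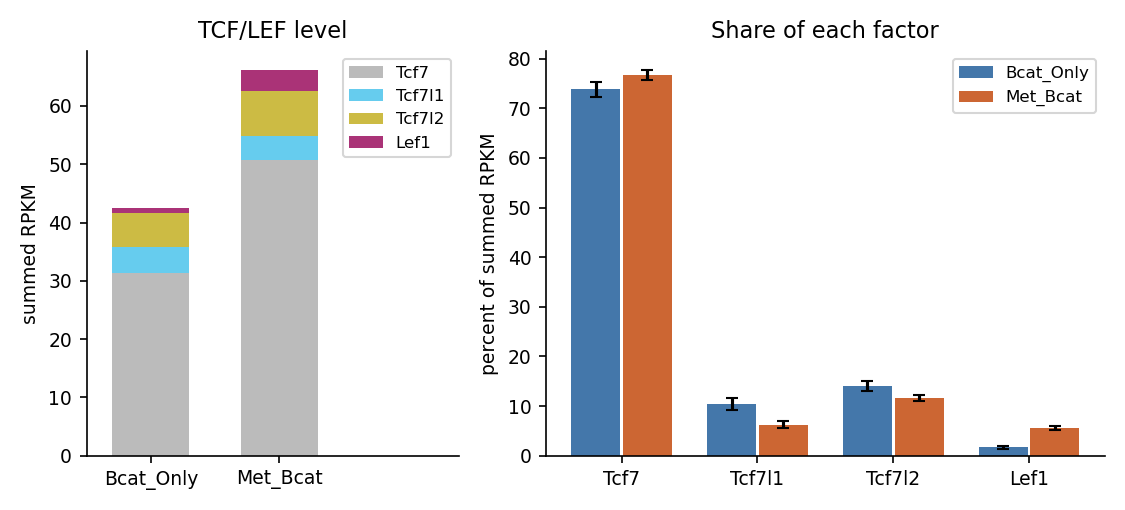
Left, summed RPKM of the 4 TCF/LEF genes in each library, stacked by gene. Right, each gene's percent of that sum, with 95% counting intervals. Tcf7 holds 73.8% in Bcat_Only and 76.7% in Met_Bcat, and Lef1 1.67% and 5.51%.

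Per length, Tcf7 held 73.8% of the TCF/LEF sum in Bcat_Only (95% interval 72.3% to 75.3%) and 76.7% in Met_Bcat (75.7% to 77.7%). The share of Lef1 was 1.67% (1.36% to 1.98%) and 5.51% (5.08% to 5.94%). The share of Tcf7l1 was 10.5% (9.29% to 11.7%) and 6.22% (5.52% to 6.91%), and that of Tcf7l2 14.1% (13.1% to 15.0%) and 11.6% (10.9% to 12.2%). Thus Lef1 and Tcf7 took a larger part of the family in Met_Bcat and the TCF7L genes a smaller one, with no overlap of the counting intervals per length for any of the 4. As a share of reads, without division by length, the intervals of Tcf7 overlapped, at 52.7% to 56.3% in Bcat_Only and 54.5% to 57.1% in Met_Bcat.

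T cells, basal cells and squamous or hair-forming cells also express TCF/LEF genes, so their markers were read beside Lef1 and Tcf7. Of 12 T cell markers, 0 were higher by the 2-fold rule and 2 were lower, and 0 of the 12 were without reads in either library. Their summed level was 56.8 CPM in Bcat_Only and 42.9 CPM in Met_Bcat. Cd3e had 119 and 108 reads and Lck 147 and 148, while Cd3g had 94 and 262 and Cd4 251 and 30. Without Cd4 the other 11 markers summed to 43.2 and 41.5 CPM, a sum that keeps Cd3g, the marker with the highest ratio. Cd2, the other marker called lower, had 72 and 6 reads. Of the 12 markers 3 had a ratio above 1, against 52.6% of all genes, and the median log2 ratio was −0.52. Of 10 basal markers 4 were higher and 1 lower, with a summed level of 1239 and 2417 CPM, and of 11 squamous and hair-shaft markers considered 7 were higher and 0 lower, with 80.7 and 239 CPM. The part of T cells, basal cells and squamous cells in the Lef1 and Tcf7 difference was not tested.

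Promoter sequence was examined for the TCF/LEF core motif CTTTGA on both strands, where its reverse complement reads TCAAAG. RefSeq windows on GRCm38.p6, from 250 bases before to 50 bases after an annotated start, were matched for 6 of the 10 genes, and Apc, Axin1, Csnk1a1 and Btrc had no entry. The motif was found in 2 of the 12 windows, 1 at Gsk3b with 1 match and 1 at Lef1 with 2. Over all 32851 windows, 16.0% held at least 1 match and 1.73% held 2 or more. The Lef1 matches lie 180 and 120 bases before start 4, which is 45997 bases downstream of start 1, on the strand where the motif reads TCAAAG. The 250 bases before starts 1 and 4 are shown because Lef1 differed most among the 10 genes. Capitals mark the motif, and both stretches are on the plus strand, at chr3:131110047-131110296 and chr3:131156044-131156293.
Lef1 before start 1: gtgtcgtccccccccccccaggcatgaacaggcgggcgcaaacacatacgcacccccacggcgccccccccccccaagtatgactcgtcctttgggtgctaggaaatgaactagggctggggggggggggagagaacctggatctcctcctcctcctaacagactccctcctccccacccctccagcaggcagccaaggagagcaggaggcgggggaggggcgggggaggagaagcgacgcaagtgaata
Lef1 before start 4: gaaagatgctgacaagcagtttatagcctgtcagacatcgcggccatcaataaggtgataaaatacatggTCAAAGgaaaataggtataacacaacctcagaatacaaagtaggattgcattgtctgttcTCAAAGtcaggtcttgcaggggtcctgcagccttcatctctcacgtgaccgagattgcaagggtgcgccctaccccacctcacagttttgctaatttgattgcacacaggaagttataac
The counts are per gene, so they do not show which start was used, and a match describes the letters only.

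Outside the 10 genes, most genes of the pathway lay within 2-fold. Of 67 distinct genes considered in 6 lists, 3 were higher and 2 lower by the 2-fold rule, or 4.48% and 2.99%, against 4.42% and 14.6% of all genes. The ratio was above 1 for 49 of the 67, or 73.1%, under TMM, against 52.6% of all genes. Under luminal scaling it was above 1 for 18 of the 67. The share of all genes was not taken under that scaling, where their median log2 ratio was −0.40. The median log2 ratio over all genes considered was 0.030 with a pseudocount of 0.5 CPM.

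Of 14 other destruction complex and ubiquitin ligase genes, 0 were past the rule, with a median log2 ratio of 0.24 (−0.19 under luminal scaling). Of 11 upstream regulators 0 were higher and 1 was lower, with a median of 0.0034 (−0.43 under luminal scaling). The lower one was Ccdc88c, which encodes the Dishevelled-binding protein Daple, 3.73-fold lower (3.11 to 4.50), with 27.1 and 7.26 CPM. Of 10 nuclear co-activators 0 were past the rule, with a median of 0.30 (−0.13 under luminal scaling).

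The co-repressors and antagonists had 1 higher and 0 lower of 12, with a median of 0.28 (−0.15 under luminal scaling). Tle2, a Groucho co-repressor gene, had 100 and 297 reads, 2.60-fold higher (2.06 to 3.29), a call lost under luminal and basal scaling, where its ratio was 1.92 and 1.41. It was a minor member beside Tle1 at 154 and 252 CPM. The adherens junction partners, which hold a second pool of beta-catenin at the membrane, had 0 of 8 past the rule and a median of 0.083 (−0.35 under luminal scaling). Among them Cdh1, the E-cadherin gene, stood at 890.2 and 744 CPM, a ratio of 0.836 (0.818 to 0.855) that was 0.453 under basal scaling. Jup, which encodes the beta-catenin relative plakoglobin, was at 36.4 and 49.4 RPKM, and its change against Ctnnb1 was 1.37-fold (1.31 to 1.43).

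The 13 TCF/LEF target genes considered had 2 higher and 1 lower, with a median log2 ratio of 0.44 (0.0058 under luminal scaling and −0.45 under basal scaling). Under TMM the ratio was above 1 for 9 of the 13, against 52.6% of all genes, while Sp5 and Lgr5 were at 0.527 and 0.737. Ascl2, also listed, had 24 reads in Bcat_Only and 1 in Met_Bcat and was below the minimum of 1 CPM. Bambi and Dkk1, feedback genes of BMP and Wnt signalling, were 4.17-fold and 51.6-fold higher, the latter with 3 reads in Bcat_Only and an interval of 17.4 to 252. Cd44, a surface glycoprotein gene, was 2.11-fold lower (2.06 to 2.17), a call lost under total counts and upper-quartile scaling, where its ratio was 0.519 and 0.497. Leukocytes also express Cd44. All 10 neutrophil and all 10 macrophage markers were lower, 9.27-fold and 5.86-fold in sum, with Elane and Cd163 at 0 reads in Met_Bcat, and their part was not tested.

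**Figure D5:**
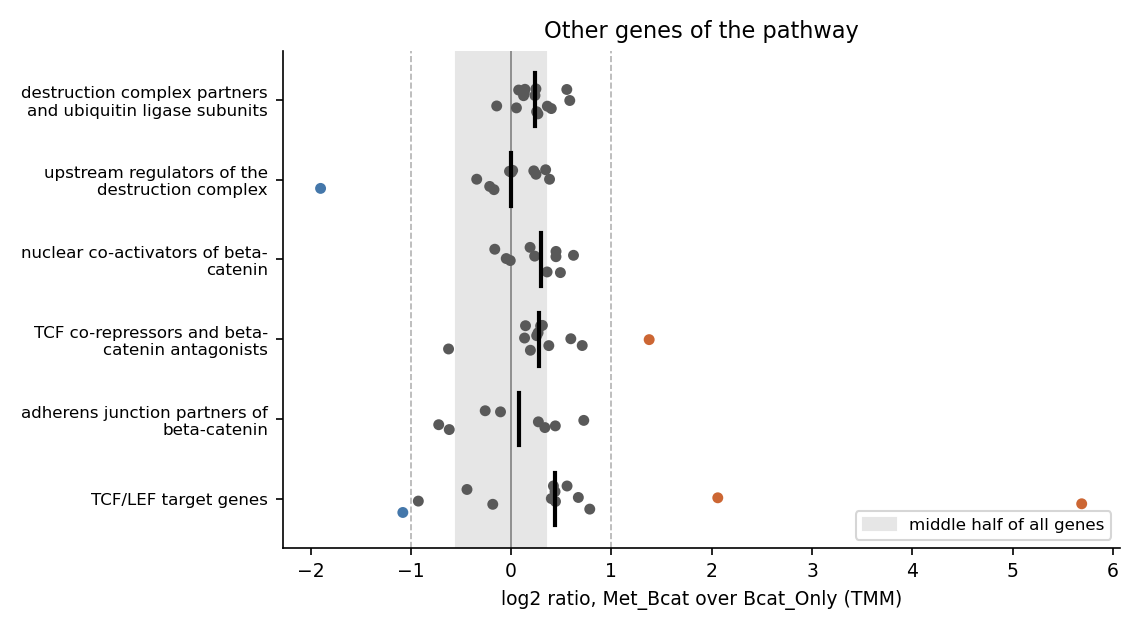
Log2 ratio of Met_Bcat over Bcat_Only under TMM (x axis) for the genes of 6 pathway lists. Each point is a gene, coloured where it was at least 2-fold higher or lower by its interval, black bars are list medians, dashed lines mark 2-fold and the grey band spans the middle part of all genes from −0.55 to 0.34. Most points lie between the dashed lines, and list medians run from 0.0034 to 0.44.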

How the data were processed

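RNA was measured in 2 samples, 1 per genotype. Per the labels' protocols, 200 ng of total RNA from homogenised tissue entered a stranded mRNA kit with 10 PCR cycles, and was sequenced from one end over 51 bases. The authors deposited raw read counts per gene with mm9 coordinates and exon lengths in bases, per the file headers. TopHat2 version 2, HTSeq, edgeR and mm9 are named in the submitters' processing notes. No source used here gives the strand or alignment settings, so reads of overlapping genes are uncertain.

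Columns were matched to samples by the sample number in their headings. CPM and RPKM were computed from the counts with TMM factors (edgeR 4.0.16, R 4.3.3) of 0.955 for Bcat_Only and 1.05 for Met_Bcat. Ratios between libraries have exact (Clopper-Pearson) 95% intervals conditional on the summed reads, levels have exact Poisson intervals, and ratios between genes and shares per length have normal approximations. Reads copied by PCR are not independent molecules, so intervals cover counting error only. A gene was considered from a mean of 1 CPM upward and counted as higher or lower when the near end of the interval was at least 2-fold or 1.5-fold. Named genes are the 10 members with their close relatives, Axin2, up to 4 genes of each pathway list past the 2-fold rule and up to 3 defining genes of a marker list. Cd4, Cd3g, Cd2, the 6 prostate secretory markers, Sp5, Lgr5, Ascl2, Tle1 and Cdh1 were named after their values were seen. Of 197 list entries 3 had no single row and were left out. The members and lists were chosen with earlier results of these data known. The alternatives tried were total counts, DESeq2 1.42.0 size factors, upper-quartile, luminal and basal scaling, other minimum levels and pseudocounts, the mean in place of the median, calls on the ratio itself, and family shares without division by length.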

Additional observations from a re-analysis of the deposited data

How the results depend on the processing

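The count of members past the 2-fold rule was 1 higher and 0 lower under every alternative tried. At 1.5-fold the higher count was 1 under luminal and under basal scaling, and under basal scaling 6 members were lower. The median log2 ratio of all genes was −0.40 under luminal and −0.86 under basal scaling, and shares over all genes were taken under TMM only. The members with a ratio above 1 numbered 3 under luminal and 1 under basal scaling. Under basal scaling the log2 ratio of Tcf7 turned to −0.19. The lower genes of the pathway lists numbered 1 under total counts and under upper-quartile scaling, 8 under basal scaling and 4 with no minimum level. Cd44 was the one lost under total counts and upper-quartile scaling. The higher ones numbered 1 with a minimum of 10 CPM, and 2 under luminal and basal scaling, where Tle2 was lost. Without division by length the TCF/LEF shares in Bcat_Only were 54.5% for Tcf7, 9.21% for Tcf7l1, 32.5% for Tcf7l2 and 3.83% for Lef1, and in Met_Bcat 55.8%, 5.39%, 26.4% and 12.4%. The median of the adherens junction list turned to −0.11 with no minimum level, and that of the upstream regulators to −0.12 as a mean. No paired analysis was possible because each genotype has 1 library, and no library could be left out for the same reason. Depth limits Lef1 and Tcf7l1 most, with 113 and 272 reads in Bcat_Only.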
